A study of Homo sapiens with 688 samples.

Results

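The ephrins and Eph receptors are a family of cell-surface ligands and receptor tyrosine kinases, and 9 of them were followed here across 3 human cancer cell lines: the A-type ephrins EFNA1, EFNA4 and EFNA5, the B-type ephrins EFNB1 and EFNB2, the receptor EPHA2, and the receptors EPHB2, EPHB3 and EPHB4. They are 9 of the 23183 gene symbols that all count tables list, and 9 of the 22 ephrin and Eph symbols considered. The family was selected on its readout, because EFNA1 was lower in BT20 cells given bortezomib, so that contrast is described for every member in both library types and not tested. Levels between cell lines were likewise described without a test.

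Members of the family signal between touching cells. An A-type ephrin is tied to the outer membrane by a lipid anchor and binds mostly EphA receptors, whereas a B-type ephrin spans the membrane and binds mostly EphB receptors. Binding clusters the receptor, starts its kinase and repels or holds the cell, and the ephrin can also signal back into its own cell. EFNA1 and EPHA2 are a well-known ligand and receptor pair of epithelial tumours, and EFNB2 and EPHB4 are known for the arterial and venous identity of vessels.

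BT20 is a line of epithelial breast carcinoma. Its wells received for 6 h either the vehicle DMSO, 0.044 µM bortezomib (a proteasome inhibitor), 7.16 µM crizotinib (an inhibitor of the MET and ALK kinases), 0.56 µM albendazole (a tubulin binder), 2 µM aprepitant (an antagonist of the neurokinin receptor), 0.194 µM gemcitabine (a nucleoside analogue), or the topoisomerase II inhibitors idarubicin at 0.084 µM and mitoxantrone at 0.18 µM. Each condition had 12 wells on a single plate, read by PLATE-Seq, in which a barcode added at reverse transcription marks the well and reads come from the 3′ ends of transcripts. The rest of the same material was pooled in sets of 6 wells into 2 TruSeq libraries per condition. U87, a glioblastoma line, received 1 of 92 compounds in each of 2 sets for 24 h, at the dose set for 20% growth inhibition, with 1 well per compound on each of plates A and B of a set, and each set had 4 DMSO and 4 untreated wells. LNCaP, a prostate adenocarcinoma line, was left untreated on plates A1 and A2, which hold portions of the same lysates. Per the paper, part of each lysate went through capture of mRNA on an oligo(dT) plate. The rest was purified by column and oligo(dT) beads, and the labels do not say which plate had which. For U87, the paper pooled lysates from different quadrants of the culture plate into each capture well. A U87 well here is thus itself a pool. No source used here says that the wells of a condition came from separate cultures. The p-values therefore measure the spread between wells, or between pools in TruSeq, which may be technical. In BT20 the place of a well in its run of 8, and in U87 the well number, cannot be told apart from the drug.

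Total counts ranged from 367848 to 1317952 per BT20 PLATE-Seq well, from 16881740 to 29068232 per TruSeq pool, from 17063 to 1537549 per U87 well and from 19448 to 1277169 per LNCaP well. Under 0.5 times the median of their plate were 1 BT20 well, 3 to 7 wells of each U87 plate, 1 well of LNCaP plate A1 and 21 wells of plate A2. The markers fit the labels in most respects, with 7 of 8 epithelial markers over 10 CPM in BT20 (KRT19 was under), 6 of 6 prostate markers in LNCaP, and 6 of 7 mesenchymal glioma markers in U87, where GFAP was at 0. CPM is a gene's count divided by the total count of its library and scaled to the same total in all libraries. A gene was called when its adjusted p in edgeR's quasi-likelihood test was under 0.05. In bulk wells, fewer cells with a transcript and less of it per cell cannot be told apart.

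EFNA1 and EFNA4 lie close together on chromosome 1 (GRCh37, 155100352 to 155107375 and 155036213 to 155042029, both on the plus strand), with EFNA3 between them. The 250 bases before the annotated start are printed for EFNA1, on which the family was chosen, for its neighbour EFNA4, which was near its DMSO level with bortezomib, and for EFNB2, the member with the most calls in U87. They are from RefSeq (GRCh38.p14), 5′ to 3′ on the strand of the gene, and capitals mark matches to the GC box GGGCGG on either strand.
EFNA1 (chr1:155127626-155127875, plus strand): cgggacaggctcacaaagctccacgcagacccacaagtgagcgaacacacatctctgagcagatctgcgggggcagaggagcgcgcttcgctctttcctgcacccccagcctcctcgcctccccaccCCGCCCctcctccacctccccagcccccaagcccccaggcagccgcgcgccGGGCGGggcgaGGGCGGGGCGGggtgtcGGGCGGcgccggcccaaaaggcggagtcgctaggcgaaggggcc
EFNA4 (chr1:155063490-155063739, plus strand): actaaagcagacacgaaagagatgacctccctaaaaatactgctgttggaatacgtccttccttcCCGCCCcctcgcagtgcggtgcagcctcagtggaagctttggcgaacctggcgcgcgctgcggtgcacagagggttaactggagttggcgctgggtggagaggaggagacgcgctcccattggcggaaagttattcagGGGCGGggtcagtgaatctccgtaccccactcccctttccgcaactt
EFNB2 (chr13:106535663-106535912, minus strand): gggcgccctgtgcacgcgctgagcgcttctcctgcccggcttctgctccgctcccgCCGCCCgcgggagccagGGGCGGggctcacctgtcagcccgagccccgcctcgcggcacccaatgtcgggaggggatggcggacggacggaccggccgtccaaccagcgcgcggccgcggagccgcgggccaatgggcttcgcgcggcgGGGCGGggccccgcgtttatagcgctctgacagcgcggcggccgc

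The EFNA1 sequence holds 5 GC boxes, of which some overlap, and is 73.2% G or C, against a median of 58.0% over all 35116 promoters of this length. EFNA4 holds 2 GC boxes and EFNB2 holds 3. At least 1 GC box stood in the promoter of all 9 members, against 42.6% of all promoters. The TATA box TATAAA, held by 10.7% of promoters, was found in EFNB2 alone of the 9, in lower case above and on the opposite strand. The AP-1 site TGANTCA (6.57% of promoters), the heat shock element core GAANNTTC (5.78%) and the E-box CACGTG (6.34%) were found in none of the 9. These searches covered both strands and describe letters in this window only.

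With bortezomib, EFNA1 was the member set farthest from DMSO. Its 12 PLATE-Seq wells held 31.3, 34.5, 13.7, 24.5, 22.9, 35.7, 21.2, 28.3, 35.3, 16.5, 18.2 and 22.9 CPM, whereas the 12 DMSO wells held 89.3, 121, 94.1, 87.5, 152, 114, 111, 60.7, 93.4, 87.2, 116 and 105 CPM. All 12 bortezomib wells were under the lowest DMSO well, and the mean was 25.4 ± 7.56 CPM (SD, n = 12) against 103 ± 22.9 CPM (SD, n = 12). The log2 fold change was -1.88 (SE 0.18). This contrast called 312 of 6330 genes (4.93%), from which nothing is read for EFNA1, as it chose the family. In the TruSeq pools EFNA1 stood at 19.5 and 19.9 CPM with bortezomib and at 65.6 and 65.2 CPM with DMSO, a log2 fold change of -1.66 (SE 0.063), in a contrast that called 6114 of 14970 genes (40.8%).

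The other members differed less from DMSO with bortezomib. EFNA5 was at 13.4 ± 7.07 CPM in PLATE-Seq (SD, n = 12) against 25.5 ± 12.2 CPM, and at 22.6 and 20.9 CPM in TruSeq against 31.6 and 30.3 CPM. EFNB2 was lower in both TruSeq pools, at 5.36 and 4.23 CPM against 8.42 and 6.43 CPM. EFNB1 was higher, at 13.0 and 12.7 CPM against 7.86 and 8.68 CPM, a log2 fold change of 0.71 (SE 0.10). EPHB3 went opposite ways in the library types, with a log2 fold change of 0.43 (SE 0.066) in TruSeq, where both pools held 41.0 CPM against 31.4 and 32.5 CPM, and of -0.49 (SE 0.42) in PLATE-Seq. EPHA2, the receptor of EFNA1, was at 27.5 ± 8.51 CPM in PLATE-Seq (SD, n = 12) against 45.9 ± 13.3 CPM, whereas its TruSeq pools held 73.6 and 65.3 CPM against 76.5 and 75.1 CPM. The remaining members EFNA4, EPHB2 and EPHB4 had TruSeq log2 fold changes of -0.17 (SE 0.081), 0.24 (SE 0.082) and 0.13 (SE 0.066).

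**Figure D1:**
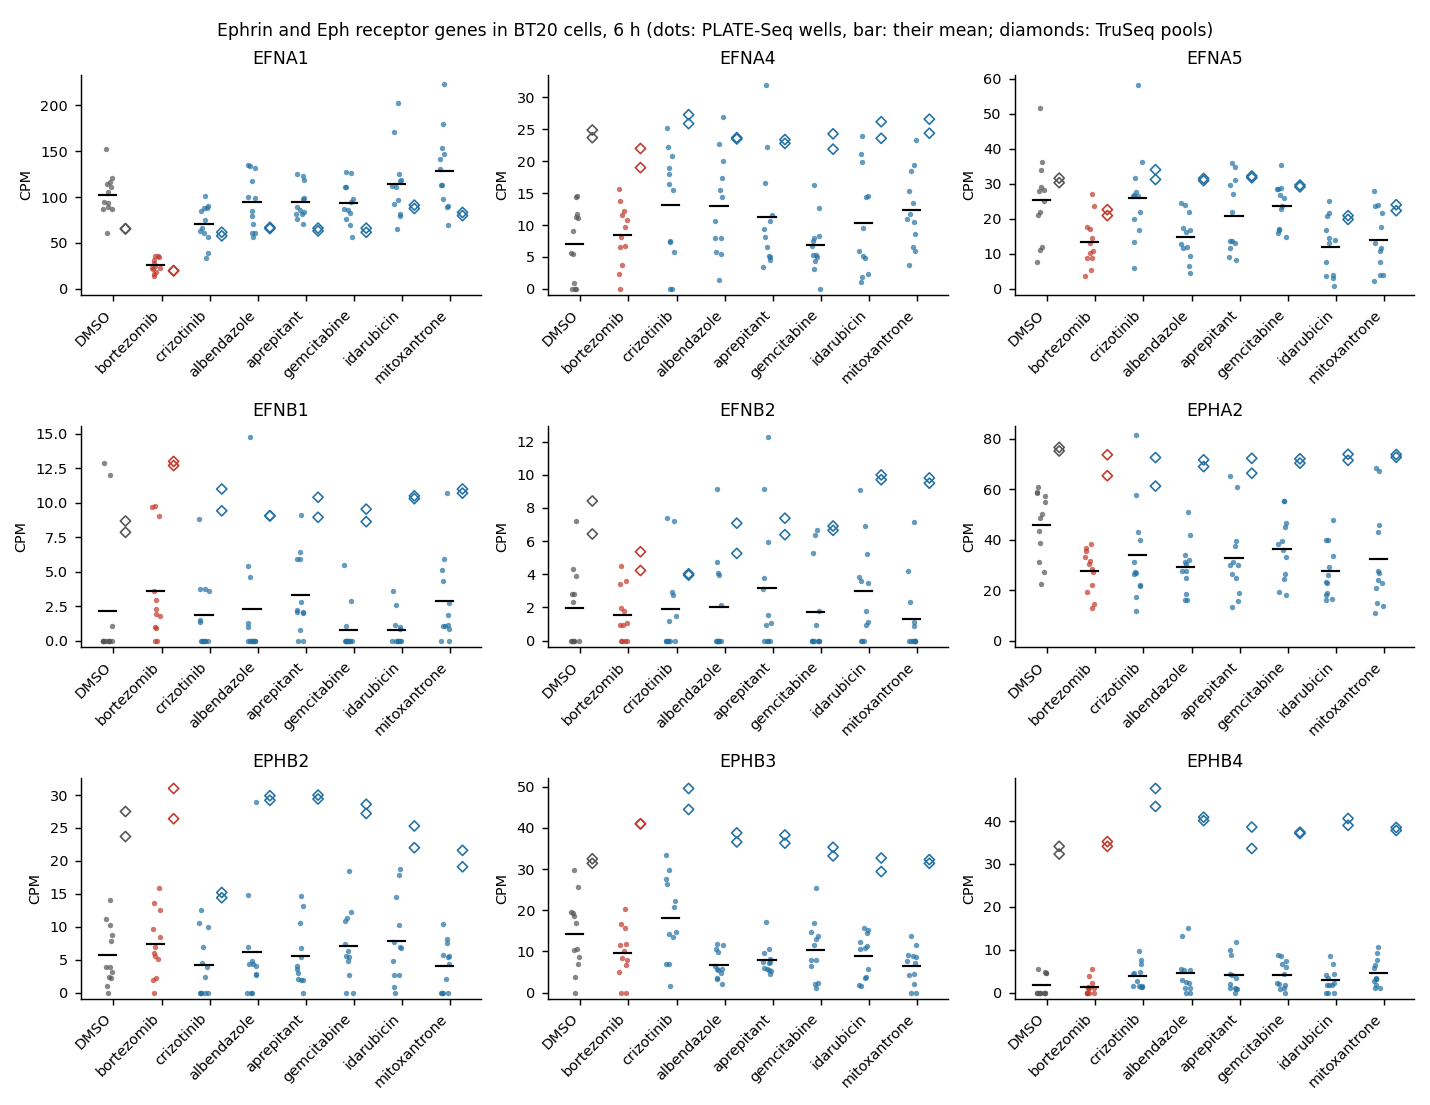
Level in CPM (vertical axis) of each member by condition (horizontal axis) in BT20 cells, with dots for single PLATE-Seq wells, a bar for their mean, and open diamonds for TruSeq pools. For EFNA1 the 12 bortezomib wells sit between 13.7 and 35.7 CPM, under all 12 DMSO wells (60.7 to 152 CPM), and EPHB4 is at 0 in 8 of 12 DMSO wells in PLATE-Seq but at 34.1 and 32.3 CPM in TruSeq.

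The other 6 drugs, which did not choose the family, were tested. They share their DMSO wells and pools with the bortezomib contrast, so the EFNA1 tests are not independent of the choice of EFNA1. In PLATE-Seq, 0 of 22 tested pairs of a member and a drug were called by edgeR, and 7 had an unadjusted p under 0.05. Of the 9 members, 4 passed the filter on low counts with mitoxantrone, crizotinib, idarubicin and gemcitabine, and 3 with albendazole and aprepitant. EFNA1, EFNA5 and EPHA2 passed in each, EPHB3 with crizotinib, idarubicin and gemcitabine, and EFNA4 with mitoxantrone, while EFNB1, EFNB2, EPHB2 and EPHB4 passed in none. Over all genes, the share called was 1.21% with mitoxantrone (589 genes at an unadjusted p under 0.05), 2.05% with crizotinib (811 genes), 2.78% with idarubicin (786 genes), 0.1% with albendazole (323 genes), 0.0% with aprepitant (356 genes) and 0.0% with gemcitabine (377 genes). DESeq2 called 2 members, EFNA1 with crizotinib and EPHA2 with idarubicin. The share of all genes called by DESeq2 was not counted, and the shares above are those of edgeR. These 2 calls therefore have no background to be set against.

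EFNA1 with crizotinib was the tested member nearest to the threshold in PLATE-Seq. Its wells ranged from 33.9 to 101 CPM with a median of 70.4 CPM, and 11 of 12 were below the DMSO median of 99.7 CPM, although only 3 were below the lowest DMSO well. The log2 fold change was -0.54 (SE 0.16, adjusted p = 0.0514 by edgeR), and DESeq2 gave an adjusted p of 0.0208. In TruSeq the pools held 61.7 and 57.7 CPM against 65.6 and 65.2 CPM, a log2 fold change of -0.10 (SE 0.058) with an adjusted p of 0.193 by edgeR.

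EPHA2 had a lower mean than in DMSO with every drug in PLATE-Seq and was called with none of the 6 tested. Its means were 27.5 to 36.4 CPM with the 7 drugs against 45.9 CPM in the 12 DMSO wells, which all 7 contrasts share. Of the 6 tested drugs the largest fold was that of idarubicin, -0.67 on the log2 scale (SE 0.22, adjusted p = 0.0865 by edgeR and 0.0452 by DESeq2). The TruSeq pools held 61.2 to 73.8 CPM with the 6 tested drugs and 76.5 and 75.1 CPM with DMSO, and log2 fold changes lay between -0.14 and -0.073 with adjusted p-values of 0.0693 or more by edgeR.

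In the deeper TruSeq libraries all 9 members passed the filter, and 17 of the 54 pairs of a member and a tested drug were called by edgeR. Mitoxantrone called 5 of 9, with 30.8% of all genes called, idarubicin 5 of 9 (37.4% of all genes), crizotinib 5 of 9 (42.2%) and albendazole 2 of 9 (11.3%). Aprepitant called 0 of 9 by edgeR (1.82% of all genes, and 4 members at an unadjusted p under 0.05) and gemcitabine 0 of 9 (0.0% of all genes with 1143 genes and 1 member at an unadjusted p under 0.05), and DESeq2 called 0 members with either drug. With 2 pools per condition, leaving out a pool left 9 to 17 calls, and the fewest were left without the first pool of each drug.

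Among the A-type ephrins, EFNA1 rose with both topoisomerase II inhibitors. Its pools held 91.2 and 87.5 CPM with idarubicin and 79.7 and 83.2 CPM with mitoxantrone, all above the DMSO pools at 65.6 and 65.2 CPM. The log2 fold changes were 0.43 (SE 0.053, adjusted p = 9.68e-08 by edgeR) and 0.27 (SE 0.055, adjusted p = 0.000229 by edgeR). The PLATE-Seq wells averaged 114 ± 38.7 and 129 ± 43.3 CPM (SD, n = 12) against 103 ± 22.9 CPM, with adjusted p-values of 0.537 and 0.272 by edgeR.

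EFNA5 moved the other way with these drugs. It held 20.9 and 19.8 CPM with idarubicin and 22.3 and 24.0 CPM with mitoxantrone, against 31.6 and 30.3 CPM with DMSO, and fell by 0.62 (SE 0.069, adjusted p = 9.39e-09) and 0.46 (SE 0.069, adjusted p = 4.72e-06) on the log2 scale by edgeR. In PLATE-Seq, 12 of 12 idarubicin wells and 11 of 12 mitoxantrone wells were below the DMSO median of 26.5 CPM, with log2 fold changes of -0.98 (SE 0.34, adjusted p = 0.126) and -0.77 (SE 0.33, adjusted p = 0.398) by edgeR. These EFNA1 and EFNA5 calls stayed past the threshold without any single pool. EFNA4 was called with none of the 6 drugs, and its TruSeq log2 fold changes lay between -0.061 and 0.17.

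The B-type ephrins were low in BT20, with at most 13.0 CPM in any TruSeq pool. EFNB2 fell with crizotinib, to 4.03 and 3.95 CPM from 8.42 and 6.43 CPM, a log2 fold change of -0.86 (SE 0.16, adjusted p = 6.91e-05 by edgeR). It rose with idarubicin to 9.99 and 9.70 CPM and with mitoxantrone to 9.81 and 9.49 CPM, by 0.38 (SE 0.13) and 0.33 (SE 0.13) on the log2 scale, with adjusted p-values of 0.0153 and 0.0495 by edgeR. Neither rise was called by DESeq2 or without the second DMSO pool, which held 6.43 CPM. EFNB1 rose with mitoxantrone, crizotinib and idarubicin by 0.31 to 0.35 on the log2 scale, and none of the 3 calls stood without the first DMSO pool or without the first pool of each drug.

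Of the receptors, EPHB2 and EPHB3 moved in opposite directions with crizotinib. EPHB2 fell to 15.2 and 14.4 CPM from 23.7 and 27.5 CPM, a log2 fold change of -0.76 (SE 0.10, adjusted p = 1.62e-07 by edgeR). EPHB3 rose to 44.5 and 49.6 CPM from 31.4 and 32.5 CPM, by 0.60 (SE 0.068, adjusted p = 1.47e-08 by edgeR). EPHB4, the main receptor of EFNB2, rose with crizotinib to 43.4 and 47.6 CPM from 34.1 and 32.3 CPM, by 0.49 on the log2 scale (SE 0.067, adjusted p = 4.38e-07 by edgeR). These 3 crizotinib calls, and that of EFNB2, stayed past the threshold without any single pool and with DESeq2.

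Smaller receptor changes were called with the other drugs. EPHB4 rose with albendazole by 0.29 and with idarubicin by 0.24 on the log2 scale (adjusted p = 0.00557 and 0.0033 by edgeR). EPHB2 fell with mitoxantrone, to 19.1 and 21.6 CPM, by 0.37 on the log2 scale (adjusted p = 0.00138 by edgeR, and 0.0529 without the second DMSO pool). EPHB3 rose with albendazole to 38.8 and 36.6 CPM, by 0.25 on the log2 scale (adjusted p = 0.019 by edgeR), whereas in PLATE-Seq, where it did not pass the filter, its albendazole wells averaged 6.75 ± 3.39 CPM (SD, n = 12) against 14.2 ± 8.93 CPM. Both albendazole calls were lost without the first pool of each drug.

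**Figure D2:**
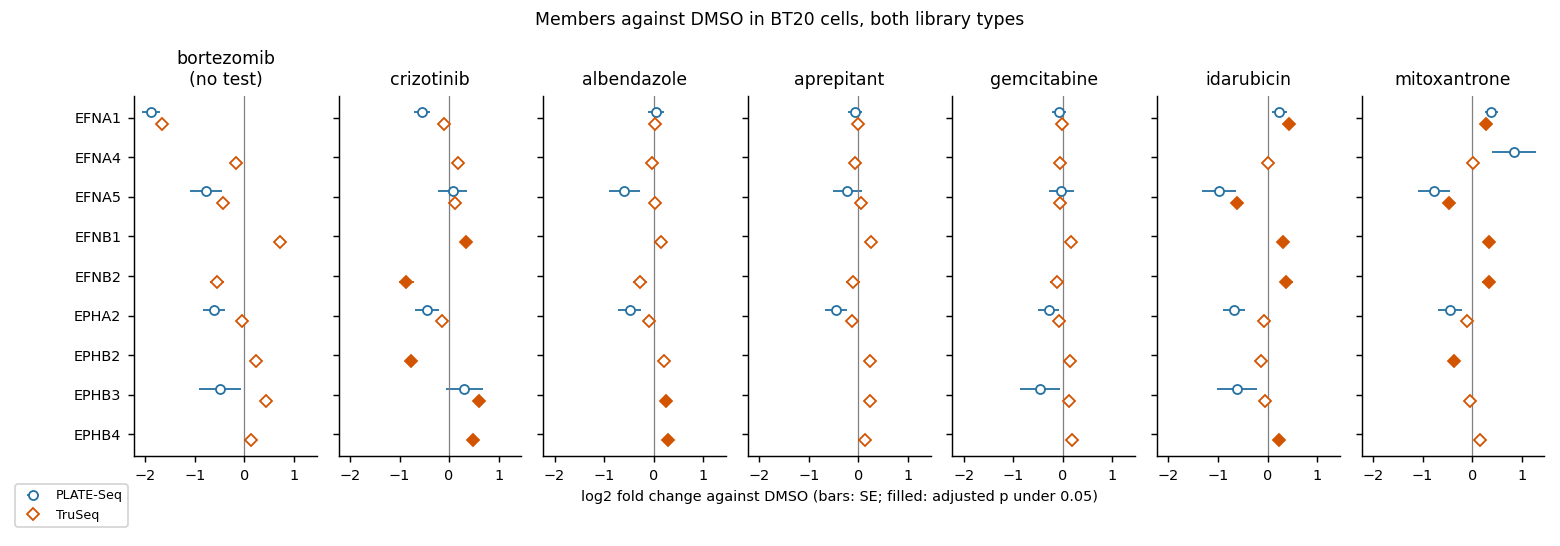
Log2 fold change against DMSO (horizontal axis) of each member (vertical axis) for the 7 drugs in BT20, with circles for PLATE-Seq and diamonds for TruSeq, bars for the SE and filled marks for an adjusted p under 0.05. Members that did not pass the PLATE-Seq filter have no circle, and bortezomib has no filled marks because it was not tested. The filled diamonds of EFNA1 lie above 0 and those of EFNA5 below 0 with idarubicin and mitoxantrone.

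The library types weighted the members unequally. Over 10761 genes with at least 5 CPM in TruSeq, the median log2 ratio of TruSeq to PLATE-Seq in DMSO was 1.37. For EFNA1 it was -0.618, at the 7.24th percentile of these genes, and for EPHB4 it was 3.94, at the 96.6th percentile. Levels of different members are therefore not compared with each other within a library type.

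Of 13 other ephrin and Eph genes, 8 passed the filter in TruSeq and 2 in PLATE-Seq, where edgeR called 0 with the 6 tested drugs and 1 pair had an unadjusted p under 0.05. In TruSeq, EFNA3, the A-type ephrin gene between EFNA4 and EFNA1, rose with crizotinib (log2 fold change 0.78, SE 0.092), albendazole (0.39, SE 0.092), aprepitant (0.39, SE 0.091) and mitoxantrone (0.25, SE 0.093). EFNA2, a further A-type ephrin, rose with mitoxantrone, idarubicin and albendazole by 0.73, 0.73 and 0.69. With idarubicin EPHA4 rose by 0.64 while EFNB3 and EPHA1 fell by 0.69 and 0.22, and with crizotinib EPHB1 and EPHB6 fell by 0.97 and 0.34. The 45 partners of Eph signalling cover shedding enzymes, adaptors, Src kinases, phosphatases and regulators of the cytoskeleton. Of them TruSeq called 22 with mitoxantrone (18 lower) and 22 with idarubicin (19 lower), against 30.8% and 37.4% of all genes. It called 17 with crizotinib (12 lower) and 6 with albendazole (5 lower), against 42.2% and 11.3% of all genes. By edgeR it called 0 with aprepitant and 0 with gemcitabine, where 8 and 3 had an unadjusted p under 0.05. Over all genes, 2266 of 4607 calls were lower with mitoxantrone, 2761 of 5597 with idarubicin, 3082 of 6318 with crizotinib and 644 of 1692 with albendazole. The median log2 fold change of the 45 was -0.10, -0.11, -0.043, -0.048, -0.048 and -0.019 in that order of drugs, against medians between -0.002 and 0.007 over all genes tested. ADAM10, the protease that sheds ephrins, fell with idarubicin by 0.40 (SE 0.044), with mitoxantrone by 0.32 (SE 0.044) and with albendazole by 0.17 (SE 0.044). VAV3 fell with idarubicin by 0.91 (SE 0.072) and rose with crizotinib by 0.58 (SE 0.068).

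The family differed in level between the cell lines, which were grown, plated and sequenced apart. EFNA1 held 60.7 to 152 CPM in the BT20 DMSO wells (median 99.7, n = 12), 0.0 to 45.9 CPM in LNCaP plate A1 (median 21.2, n = 96) and 15.0 to 154 CPM in plate A2 (median 39.4, n = 96). In U87 it was seen with 4 counts in 1 of 8 DMSO wells and with 0 counts of 6598034.0 in the 8 untreated wells, which allows up to 0.455 CPM. The order was thus BT20, LNCaP and U87, and the ranges of BT20 and plate A2 overlap, also without the wells of low depth of plate A2, where the highest was 75.5 CPM. EPHB3 likewise was near 0 in U87, with 3 counts over the 8 DMSO wells, against 14.2 ± 8.93 CPM in BT20 (SD, n = 12) and 3.85 ± 3.85 CPM in plate A1 (SD, n = 96).

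EFNB2 and EPHB2 had mean levels in the U87 DMSO wells well above those in BT20, at 50.9 against 1.94 CPM and 41.4 against 5.69 CPM. EFNB2 held 10.0 to 113 CPM in the U87 DMSO wells (median 52.4, n = 8) and 0.0 to 7.20 CPM in BT20, so that these groups did not overlap, while LNCaP plate A1 held 4.35 to 63.1 CPM (median 21.3). EPHB2 held 8.25 to 75.8 CPM in U87 (median 38.4), 0.0 to 14.0 CPM in BT20 and 0.0 to 13.4 CPM in plate A1, where 55 of 96 wells were at 0. EPHA2 was ordered BT20 (22.4 to 60.7 CPM), U87 (0.0 to 40.4 CPM) and LNCaP plate A1 (0.0 to 12.9 CPM, at 0 in 56 of 96 wells), with overlap between neighbours in that order.

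EFNA4 and EPHB4 stood highest in LNCaP. EFNA4 averaged 28.1 ± 14.1 CPM in plate A1 and 45.8 ± 22.2 CPM in plate A2 (SD, n = 96), against 6.99 ± 5.72 CPM in BT20 and 5.66 ± 4.65 CPM in U87 DMSO wells (SD, n = 8), and the last pair differed by less than its spread. EPHB4 averaged 11.1 ± 7.24 and 14.3 ± 9.05 CPM on the LNCaP plates, against 1.65 ± 2.45 CPM in BT20 and 1.67 ± 1.86 CPM in U87. EFNA5 was present in every BT20, LNCaP and U87 control well, at medians of 26.5 CPM in BT20, 38.8 CPM in U87 DMSO, 84.3 CPM in plate A1 and 59.9 CPM in plate A2, with ranges that overlap between all of them. EFNB1 was low throughout, with means of 1.82 to 3.85 CPM.

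These orders rest on totals that differ in kind. Of the BT20 PLATE-Seq counts, 41.1% were in 6 symbols that the U87 and LNCaP tables do not list, and without them the BT20 means were 169 CPM for EFNA1, 75.6 CPM for EPHA2, 41.7 CPM for EFNA5 and 23.4 CPM for EPHB3. The ratio of the BT20 to the U87 DMSO mean then moved from 0.592 to 0.968 for EFNA5, from 1.24 to 2.01 for EFNA4, from 0.695 to 1.16 for EFNB1 and from 0.988 to 1.64 for EPHB4, so that the order of the lines turned for EFNB1 and EPHB4, and for EFNA5 by the median (42.7 CPM in BT20 against 38.8 CPM). For EFNB2 and EPHB2 it stayed below 1, at 0.0625 and 0.229. The LNCaP plates also differed for portions of the same lysates, whose mRNA was purified in different ways. EFNA1 was higher on plate A2 in 62 of 74 pairs of wells of adequate depth, and EFNA4 in 65. EFNA5 was higher on plate A1 in 64. Plate and purification cannot be told apart.

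**Figure D3:**
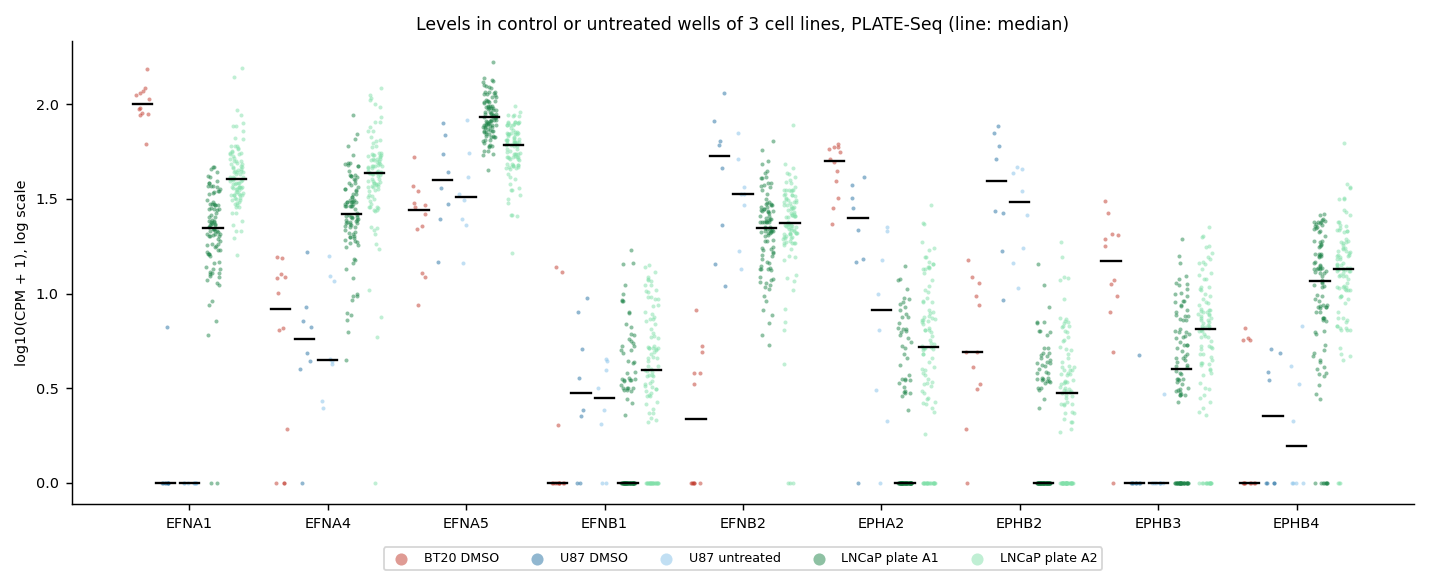
Level of each member, as log10(CPM + 1), in the 12 BT20 DMSO wells, the 8 DMSO and 8 untreated U87 wells and the 96 LNCaP wells of each plate, with a line at the median. EFNA1 is at 0 in 7 of 8 U87 DMSO wells and at 60.7 CPM or more in BT20, whereas EFNB2 and EPHB2 are higher in U87 than in BT20.

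In U87 cells, EFNA1, EPHB3 and EPHB4 did not pass the filter in either set and could not be tested. EFNA1 gave 75 counts in 48 of 384 wells, EPHB3 gave 89 counts in 58 wells and EPHB4 gave 543 counts in 241 wells. With 0.01 µM bortezomib for 24 h, EFNA1 had 0 counts of 1587498, which allows up to 1.89 CPM (3 counts over both wells), so a lower level than in DMSO was not detectable at this depth. Of the 6 tested members, 0 were called with bortezomib by edgeR, in a contrast that called 1381 of 10025 genes. With only 6 members this is not read as a difference from all genes. EFNA5 held 23.0 and 22.3 CPM on plates A and B with a log2 fold change of -0.99 (SE 0.38, adjusted p = 0.0776 by edgeR), and EFNB2 held 33.3 and 37.2 CPM with -0.75 (SE 0.34, adjusted p = 0.137 by edgeR). Doses and times differ from BT20, so these values stand side by side only.

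EFNB2 was the member called most often across the U87 compounds. In set 1, 27 of 552 pairs of a member and a compound were called by edgeR with the plate as a term (4.89%), all lower, against 1.99% of all pairs of a gene and a compound. Of the calls over all pairs, 10165 of 18364 were lower. EFNB2 made up 21 of the 27 member calls, EPHA2 3, EPHB2 2, EFNA5 1, and EFNA4 and EFNB1 0. EFNB2 was below DMSO with 90 of 92 compounds, with a median log2 fold change of -1.04, and 79 had an unadjusted p under 0.05. All compounds share the same 4 DMSO wells, which held 44.9, 59.8, 62.9 and 113 CPM, the first pair on plate A. The untreated wells held 35.7, 32.7, 50.4 and 69.3 CPM, both below the DMSO wells on plate A, while on plate B the well at 69.3 CPM was above the DMSO well at 62.9 CPM. Without the DMSO well at 113 CPM, 9 calls over all members were made in set 1, of which 8 were among the 27. With DMSO and untreated wells as 1 control group there were 16, of which 10 were among the 27. Without the plate term 1 was left.

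The compounds with the largest called falls of EFNB2 were fludarabine, mechlorethamine and etoposide. Fludarabine, a nucleoside analogue, had 2 and 0 EFNB2 counts in wells of 76948 and 95412 counts, both of low depth. It called 1221 of 10023 genes, whereas mechlorethamine called 61 of 10023 and etoposide 242 of 10026. Mechlorethamine, a DNA alkylator, gave 11.4 and 22.0 CPM on plates A and B and a log2 fold change of -1.93 (SE 0.40, adjusted p = 0.00401 by edgeR). Etoposide, a topoisomerase II poison, gave 17.8 and 20.7 CPM and -1.87 (SE 0.40, adjusted p = 0.00192 by edgeR). The adjusted p of these 2 was 0.0411 and 0.023 without the highest DMSO well, and 0.629 and 0.205 without the plate term, which no EFNB2 call passed.

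The receptors had fewer calls in set 1. EPHA2 was called with the MEK inhibitor trametinib at 15.4 and 2.52 CPM against 40.4, 30.9, 27.2 and 36.5 CPM in DMSO, a log2 fold change of -2.0 (SE 0.59, adjusted p = 0.0304 by edgeR). Its other calls were with belinostat, an inhibitor of histone deacetylases, at 2 and 0 counts, and with fludarabine at 0 counts in both wells, which allows up to 17.4 CPM (3 counts over both wells). EPHA2 also was below DMSO with 90 of 92 compounds (median log2 fold change -1.06), and the untreated wells held 20.4, 8.91, 14.1 and 1.14 CPM, all under the DMSO wells. None of the 3 EPHA2 calls stood with the DMSO and untreated wells as 1 control group, where the adjusted p was 0.242 to 0.412 by edgeR. Trametinib called 515 of 10026 genes, belinostat 1608 of 10036 and fludarabine 1221 of 10023. EPHB2 was called with mithramycin A, which binds GC-rich DNA, at 6.34 and 8.23 CPM against 15.7 and 8.25 CPM on plate A and 69.7 and 59.2 CPM on plate B in DMSO (log2 fold change -2.34, SE 0.65, adjusted p = 0.00672 by edgeR), and with doxorubicin at 11.5 and 9.74 CPM (-1.92, SE 0.63, adjusted p = 0.0424 by edgeR). The mithramycin A wells held 2 and 3 EPHB2 counts. The doxorubicin wells held 3 and 3 EPHB2 counts of 260798 and 307974, and both were of low depth. The doxorubicin call was lost without the third or the fourth DMSO well (adjusted p = 0.145 and 0.0833 by edgeR) and with 1 control group (0.0541). Without the plate term neither EPHB2 call stood (0.102 for mithramycin A and 0.282 for doxorubicin). Mithramycin A called 1666 of 10026 genes and doxorubicin 819 of 10026.

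EFNA5 was called in set 1 with romidepsin, a histone deacetylase inhibitor, at 0.0 and 19.2 CPM against 42.7, 28.9, 68.0 and 78.3 CPM in DMSO. The romidepsin wells held 0 and 7 EFNA5 counts, and the well on plate A was of low depth. The log2 fold change was -2.36 (SE 0.56, adjusted p = 0.000468 by edgeR). This is the member call of set 1 that also passed without the plate term (adjusted p = 0.0327 by edgeR). Romidepsin called 2629 of 10036 genes, the most of any compound of set 1.

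In set 2, 2 of 552 pairs were called (0.362%), against 2.26% of all pairs. The compounds of these calls, IPAG and triapine, called 331 of 10799 and 546 of 10801 genes. EFNA4 rose with IPAG, a sigma receptor ligand, to 47.8 and 22.2 CPM against 3.88, 5.67, 2.97 and 7.50 CPM in DMSO (log2 fold change 2.63, SE 0.65, adjusted p = 0.0109 by edgeR). EFNA5 fell with triapine, an inhibitor of ribonucleotide reductase, to 10.9 and 8.14 CPM against 34.9, 53.8, 23.8 and 13.8 CPM (log2 fold change -1.69, SE 0.49, adjusted p = 0.0293 by edgeR). EFNB2, which was called 21 times in set 1, was called with 0 of 92 compounds here by edgeR (1 at an unadjusted p under 0.05), and its 4 DMSO wells held 22.0, 80.7, 13.4 and 10.0 CPM. Neither call stood with a single well of the compound or without the plate term, where the adjusted p was 0.138 and 0.205.

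**Figure D4:**
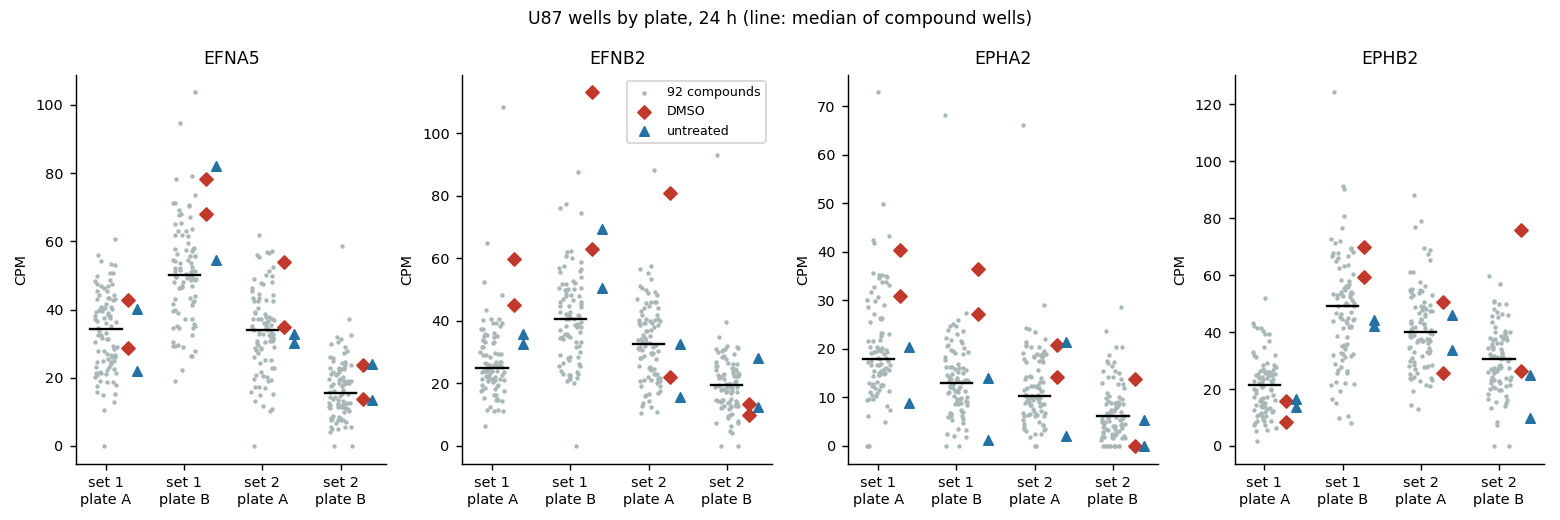
CPM of 4 members in the U87 wells by set and plate (horizontal axis), with dots for wells of the 92 compounds, a line at their median, diamonds for DMSO and triangles for untreated wells. On set 1 the DMSO wells of EFNB2 (44.9 to 113 CPM) and EPHA2 (27.2 to 40.4 CPM) are above the line of their plate, and the untreated wells of EPHA2 (1.14 to 20.4 CPM) are all below the DMSO wells.

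Compounds with a shared target were also tested as classes, each as the mean of its compounds against DMSO. The 13 classes, each with 6 members tested, gave 14 member calls by edgeR, all lower. Over all genes the classes called from 0.488% to 19.8%, and lower calls outnumbered higher ones in each class. With histone deacetylase inhibitors of set 1, for example, 1298 of 1990 calls over all genes were lower. EFNB2 was called in 7 of the 8 classes of set 1, and of all 14 calls only 2, EFNB2 with MEK inhibitors and with the other topoisomerase poisons, passed without the plate term. Without the fourth DMSO well of each set, which in set 1 is the one at 113 CPM for EFNB2, 5 of the 14 were left. These were EFNA5 with histone deacetylase inhibitors, EFNB2 and EPHA2 with MEK inhibitors and EFNB2 with other topoisomerase poisons in set 1, and EPHB2 with MEK inhibitors in set 2.

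The MEK inhibitors, which block the kinase upstream of ERK, gave the largest EFNB2 change. The wells of cobimetinib held 15.4 and 25.5 CPM and those of trametinib 19.7 and 20.1 CPM, all below the 4 DMSO and 4 untreated wells of the set. Over all 96 wells the EFNB2 median was 25.6 CPM on plate A and 41.6 CPM on plate B. Each median was also below every DMSO and untreated well of its plate. The log2 fold change with MEK inhibitors was -1.74 (SE 0.29, adjusted p = 7.23e-06 by edgeR), in a class that called 6.12% of all genes. EPHA2 was lower than in DMSO with the same class by 1.73 (SE 0.45, adjusted p = 0.00797 by edgeR), with 11.9, 11.3, 15.4 and 2.52 CPM in its 4 wells. These lie within the range of the untreated wells, which held 20.4, 8.91, 14.1 and 1.14 CPM. Classes were not fitted with DMSO and untreated wells as 1 control group. In set 2 the MEK inhibitors were pimasertib, refametinib and TAK-733, with 13.8% of all genes called. EPHA2 held 1.90, 5.61, 0.0, 2.55, 2.42 and 0.0 CPM in these wells against 20.7, 14.2, 0.0 and 13.8 CPM in DMSO. The untreated wells held 21.5, 2.11, 5.43 and 0.0 CPM. The log2 fold change against DMSO was -2.55 (SE 0.89, adjusted p = 0.0467 by edgeR). EPHB2 fell there by 1.01 (SE 0.35, adjusted p = 0.0469 by edgeR), and EFNB2 was not called (-0.88, SE 0.42, adjusted p = 0.171 by edgeR). Both set 2 calls were lost with DESeq2, with adjusted p-values of 0.0851 and 0.0788, and the EPHB2 fold was -0.50 without the DMSO well at 75.8 CPM.

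EFNB2 also fell in set 1 with proteasome inhibitors by 1.08 (SE 0.26, 6.38% of all genes called), with anthracyclines and mitoxantrone by 1.03 (SE 0.24, 4.68%), with EGFR inhibitors by 1.00 (SE 0.22, 0.638%), with tubulin binders by 0.96 (SE 0.23, 0.488%), with SRC and ABL inhibitors by 1.15 (SE 0.25, 0.658%) and with the other topoisomerase poisons by 1.17 (SE 0.24, 6.54%) on the log2 scale. These folds lie near the median EFNB2 fold over all 92 compounds of set 1, which was -1.04 against the same DMSO wells. They are therefore not read as particular to a class. Histone deacetylase inhibitors, which called 19.8% of all genes, were the class of set 1 without an EFNB2 call (-0.19, SE 0.23, adjusted p = 0.621 by edgeR). Their median was 60.8 CPM over 8 wells, and the compounds differed. Belinostat held 65.0 and 77.3 CPM, romidepsin 108 and 87.7, panobinostat 40.1 and 56.5, and vorinostat 21.3 and 48.1. Both belinostat wells and the plate A well of romidepsin were of low depth. The difference between this class and the others was not tested. The same class called EFNA5, with 0.0 to 49.1 CPM and a log2 fold change of -1.15 (SE 0.31, adjusted p = 0.0026 by edgeR), and EPHA2 (-1.36, SE 0.45, adjusted p = 0.0193 by edgeR), whose adjusted p was 0.377 without the wells of low depth. The other topoisomerase poisons also called EFNA5 (-0.92, SE 0.26) and EPHA2 (-1.23, SE 0.36), with adjusted p-values of 0.0138 and 0.0228 by edgeR. For EPHA2 the medians of the histone deacetylase inhibitors and of these poisons were 14.7 and 13.9 CPM. The untreated wells of set 1 held 1.14 to 20.4 CPM. In set 2, 0 members were called by edgeR, DESeq2 or limma with histone deacetylase inhibitors (10.1% of all genes called), PI3K and mTOR inhibitors (0.638%), the celastrol family (3.49%) or tubulin binders (3.77%), and 0 had an unadjusted p under 0.05. The median log2 fold change of all genes was -0.36 with the celastrol family and -0.14 with histone deacetylase inhibitors of set 1, and within 0.069 of 0 in the other classes.

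**Figure D5:**
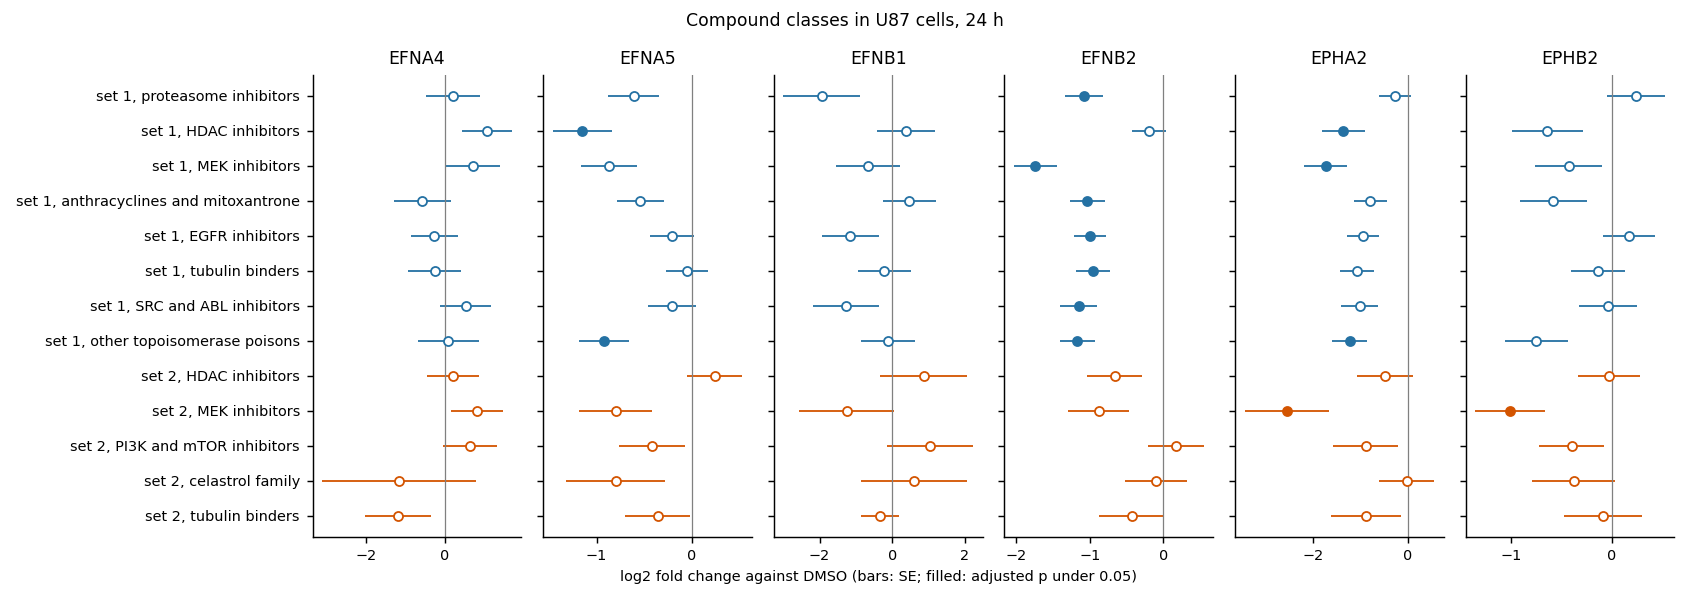
Log2 fold change against DMSO (horizontal axes) of the 6 tested members for the 13 compound classes (vertical axis), with set 1 in blue, set 2 in orange, bars for the SE and filled marks for an adjusted p under 0.05. The EFNB2 marks of set 1 lie between -1.74 and -0.96 except for histone deacetylase inhibitors at -0.19, and the EPHA2 mark of MEK inhibitors is at -1.73 in set 1 and at -2.55 in set 2.

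Among the other ephrin and Eph genes, 3 of 13 passed the filter in set 1 and 4 in set 2. They gave 3 calls in set 1 (1.09% of pairs), all of EFNA3, and 9 in set 2 (2.45% of pairs), of which EFNA3 was lower with 8 compounds and EPHA4 higher with 1. The partners gave 94 calls of 3496 pairs in set 1 (2.69%, 64 of them lower) and 105 of 3680 in set 2 (2.85%, 75 of them lower). Over all pairs of a gene and a compound the shares called were 1.99% and 2.26%. Of those calls, 10165 of 18364 in set 1 and 11537 of 22432 in set 2 were lower. Among classes, EFNA3 rose with histone deacetylase inhibitors of set 1 by 0.98 (SE 0.27) and fell with anthracyclines and mitoxantrone by 1.28 (SE 0.35) and with tubulin binders of set 2 by 1.14 (SE 0.32), and EPHA4 rose with histone deacetylase inhibitors of set 2 by 1.86 (SE 0.60). In both sets PXN, a focal adhesion adaptor, was lower with MEK inhibitors, by 0.59 (SE 0.13) and 1.11 (SE 0.12), each called by edgeR. It was also called lower with histone deacetylase inhibitors in both sets, by 0.47 (SE 0.12) and 0.34 (SE 0.10). RHOA was called higher with both classes in both sets.

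Over the 184 compounds, the genes most like each member were found by Pearson's correlation of log2 CPM, centred within a set, among 9784 genes. For EFNA5 they were PFKFB4 (0.566), NT5E (0.551) and VDAC1 (0.55), and for EFNB2 PIAS1 (0.438), EHD1 (0.437) and ID1 (0.419). For EPHA2 they were MRPL49 (0.528), LETM2 (0.487) and TTI1 (0.482), and for EPHB2 SMARCA4 (0.571), DNMT1 (0.559) and BUB1B (0.556). These correlations are across compounds whose wells share plates and depth, and each was picked as the highest among these genes, so they describe these wells only.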

How the data were processed

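PLATE-Seq wells of BT20, U87 and LNCaP cells and TruSeq pools of BT20 cells were analysed from the counts per gene symbol that the authors deposited. Per the authors, PLATE-Seq reads were aligned with bwa-mem to UCSC known genes (hg19) and uniquely mapped sense reads were counted, without molecular identifiers, so intervals and limits cover counting error only. How TruSeq reads were counted was not given separately in the sources used here. The 92 spike-in rows were left out of totals, 0 columns lacked a sample and 0 columns were identical.

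The main test was edgeR 4.0.16 (quasi-likelihood, robust, TMM scaling, its filter on low counts at a minimum of 10) in R 4.3.3, with Benjamini-Hochberg adjustment over all tested genes of a comparison and a threshold of 0.05. BT20 drugs were each compared with DMSO in PLATE-Seq, all 8 TruSeq conditions shared a fit, and U87 compounds and classes were compared with the DMSO wells of their set with the plate as a term, since plates A and B of a set are named in the labels and each compound has 1 well on each. SE is the absolute log2 fold change over the root of F. Bortezomib in BT20 and levels between lines were described without a test. Alternatives were DESeq2 1.42.0, limma 3.58.1 (voom), other scaling, no filter, no plate term, other control groups and left-out wells or pools. The code was tested on simulated data.

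All 9 members are named in every comparison, other family genes where called, at most 5 called partners of smallest p, and at most 3 called compounds of largest fold per member and direction. The members and lists were chosen with earlier results of these data known. Promoters are from RefSeq (GRCh38.p14, 250 bases, 9 of 9 members matched), and gene positions are on GRCh37.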

Additional observations from a re-analysis of the deposited data

Results flagged for a closer look

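The 4 DMSO wells and the 4 untreated wells of each U87 set were examined for each member, and in 6 of the 31 groups with any spread 1 well stood far from the others. For values with no ties chance sets apart about 1 group in 20, but this rate was not worked out for counts near 0, where a single well with a count among wells at 0 is always set apart, as in 4 of the 6 groups. Each group also joins plates A and B. EFNB2 was at 80.7 CPM in 1 DMSO well of set 2, with the next at 22.0 CPM and the lowest at 10.0 CPM. EFNA1 was at 5.67 CPM in 1 DMSO well of set 2 and at 0.0 CPM in the others, and EPHB3 was at 3.75 CPM in 1 DMSO well and at 1.93 CPM in 1 untreated well of that set, with 0.0 CPM in the others. EPHB4 was at 4.12 CPM in 1 DMSO well of set 1 and at 0.0 CPM in the others. EFNB1 was at 0.0 CPM in 1 untreated well of set 1, below the next at 2.97 CPM. Apart from EFNB2, these values rest on few counts.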

How the results depend on the processing

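Of the calls among members in BT20 PLATE-Seq (0), 1 was made without the filter on low counts and 2 with DESeq2, and a block for runs of 8 wells gave 0. These runs do not pair the wells, since the deviations of drug and DMSO wells of a run correlated over 0.1 in 0 of 84 pairs (mean 0.00535). The 17 TruSeq calls became 9 to 17 when a pool was left out, 14 with DESeq2 and 19 without the filter. In U87 set 1 the 27 calls became 1 with no replicate block (no plate term), 16 with DMSO and untreated wells as 1 control group, and 4 to 25 when a well was left out. In set 2 the 2 calls became 0 with no replicate block, 1 with all compounds adjusted together, 5 with limma and 0 to 2 when a well was left out. The 14 class calls became 2 with no replicate block and 5 to 13 without a DMSO well. These are totals, and not all calls of an alternative were main calls. Shares called over all genes were not counted for the alternatives. With 1 control group, 10 of the 16 calls of set 1 were among its 27. Without the 6 symbols with most counts, BT20 means moved to 169 CPM for EFNA1, 41.7 CPM for EFNA5, 75.6 CPM for EPHA2 and 23.4 CPM for EPHB3. The order of BT20 and U87 means turned for EFNB1 (ratio 0.695 to 1.16) and EPHB4 (0.988 to 1.64) under this alternative, and that of BT20 and LNCaP plate A1 for EFNB1 (0.98 to 1.63). No tested fold change that was called turned its direction. The cause of these changes was not tested. Depth limits EFNA1, EPHB3 and EPHB4 in U87 and the B-type ephrins and EPHB4 in BT20 PLATE-Seq, which had 18 to 24 counts over 12 DMSO wells.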
